A study of Rattus norvegicus with 35 samples.

Results

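Chemokines and their receptors were followed in rat liver on 35 whole-transcriptome arrays. The group was defined by gene symbol, with earlier results of these data known. Membership needed a probe set with a single symbol. That symbol had to name a CC, CXC, CX3C or XC ligand, a receptor of one of these, or an atypical chemokine receptor. Every such gene was taken. This gave 45 of the 13439 genes measured, namely 16 CC ligands, 11 CXC ligands, 2 other ligands (Cx3cl1 and Xcl1), 12 signalling receptors and 4 atypical receptors.

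Chemokines are small secreted or membrane-tethered proteins that draw leukocytes along a gradient. Each binds one or several G protein-coupled receptors, while atypical receptors take up ligand without G protein signalling. In liver, hepatocytes, cholangiocytes, Kupffer cells, stellate cells and sinusoidal endothelium all make them, and they steer neutrophils, monocytes and lymphocytes into injured or infected tissue.

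The study asked what hemorrhage followed by resuscitation (H/R) does to the cirrhotic liver, and whether simvastatin, an inhibitor of HMG-CoA reductase, changes it. The arrays fell into 6 groups, and each n counts arrays. Control rats had a sham procedure (n = 5) or H/R (n = 6). Untreated cirrhotic rats had sham (n = 5) or H/R (n = 6), and simvastatin-treated cirrhotic rats had sham (n = 5) or H/R (n = 8). The cirrhosis was secondary biliary: the common bile duct was tied with 2 ligatures and cut out between them, and these rats, here called ligated, were studied 4 weeks later and had vitamin K every week. Daily gavage of simvastatin at 5 mg/kg began 3 days ahead of the final study, whose experiments came 1 h after the drug was last given. The labels do not say whether the controls had a sham ligation or vitamin K, whether the untreated ligated rats received vehicle, or give strain, age or sex. They do not say either whether each array is a separate animal, so p-values measure only the spread between these samples.

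All levels are log2 signals as deposited, and differences are log2 differences of group means, with the standard error (SE) from one limma model over all 35 arrays. A gene was counted as changed at a Benjamini-Hochberg adjusted p under 0.05, taken over all 13439 genes. A group mean was taken as not above background when it did not exceed the mean brightness of the brightest nonspecific control probe set on the group's arrays (4.51 in sham controls, 4.59 in H/R controls, 3.64 and 4.00 in untreated ligated sham and H/R, and 3.26 and 3.32 in the simvastatin sham and H/R groups). Where the lower group was not above background, each of its arrays was set to the higher of its own value and the brightest nonspecific probe set on that array, and the fold against their mean is given as a lower bound. Levels of different genes were not compared with each other, because probe sets differ in brightness.

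Array medians ran from 3.97 to 4.02 in the control groups and from 4.06 to 4.29 in all ligated groups, so control and ligated arrays did not overlap. The spiked hybridisation controls also separated them, with BioD over BioB at 2.13 to 2.41 on control arrays and 2.51 to 3.00 on ligated arrays. The part of either in the ligation results was not tested. One array, replicate 1 of the simvastatin sham group, had an actin 3′ to 5′ difference of 4.30, and a GAPDH difference of 2.20. No 2 arrays were identical, and the closest pair correlated at 0.992. Hepatocyte markers were bright in every group (5 of 5 measured genes above background), with summed linear signals of 30745 to 44077.

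Of the 45 members, 18 were above background in all 6 groups and 12 in none. The 12 were Ackr2, Ccl17, Ccl22, Xcl1 and 8 of the 12 signalling receptors (Ccr2, Ccr3, Ccr4, Ccr10, Cxcr1, Cxcr2, Cxcr3 and Cxcr5). Cxcr4 alone of the signalling receptors was above background in all groups. Ligands were measured more often, with 8 of 11 CXC ligands and 7 of 16 CC ligands above background throughout. By the median of the nonspecific probe sets instead of the brightest, 0 members were at background in all groups, so the 12 are dim rather than shown to be absent.

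**Figure D1:**
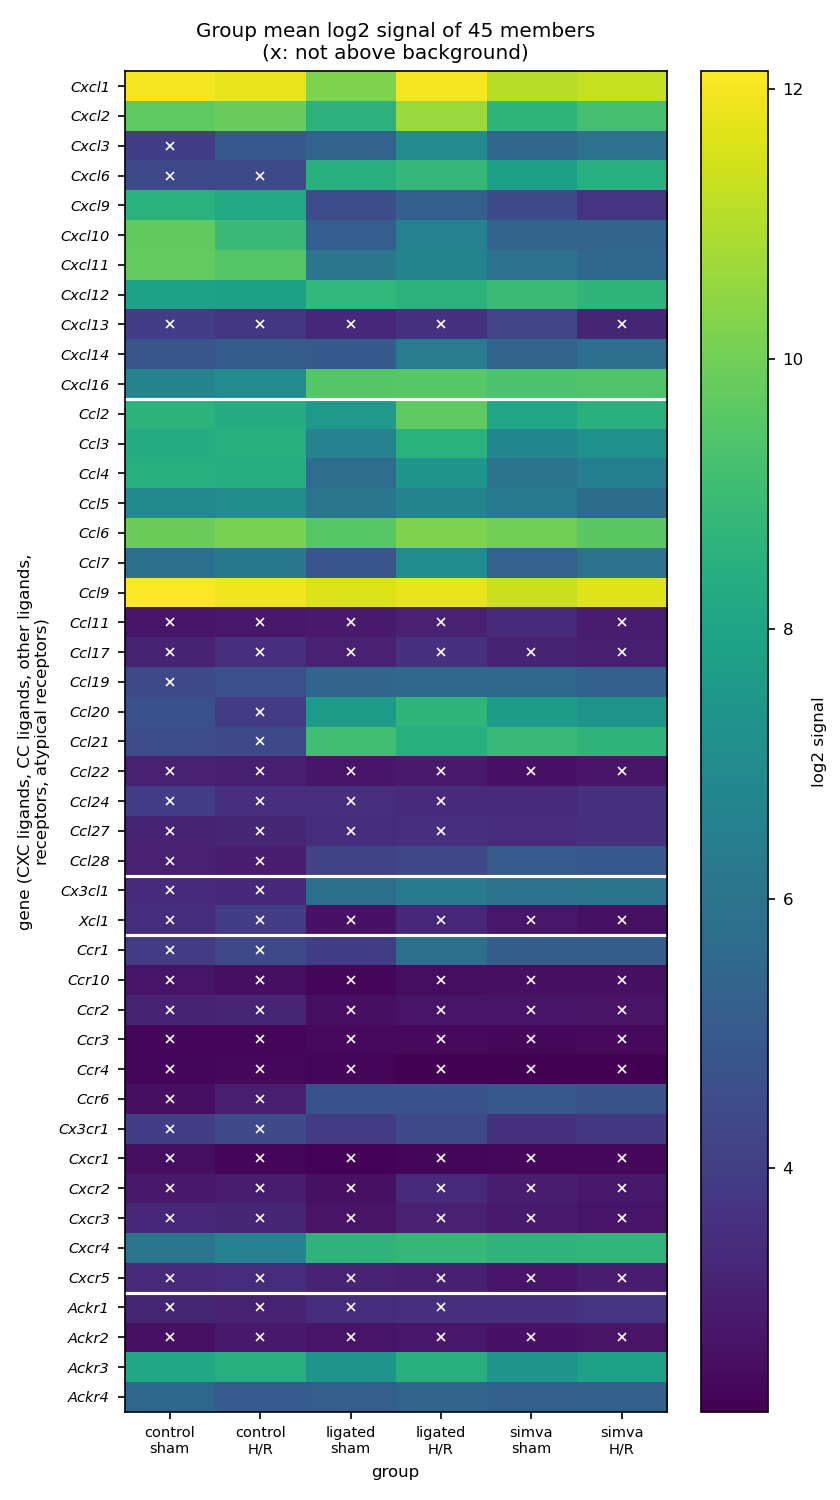
Group mean log2 signal of the 45 members (rows, by role) in the 6 groups (columns), with a cross where the mean was not above background. Of 12 signalling receptors, 8 carry a cross in all groups, and Cxcl9, Cxcl10 and Cxcl11 are brighter in the 2 control groups than in the ligated ones.

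Several of the members that differed most lie side by side on chromosome 14, and their promoters are printed because neighbours there moved in opposite directions after ligation. Sequences are from RefSeq (build GRCr8), 250 bases before and 50 after the annotated start, on the gene's own strand and 5′ to 3′. Capitals mark matches to GAAANNGAA, a short form of the interferon response element, or GGNNNTTCC, a short form of the NF-κB site, searched on both strands. Cxcl11 (chr14:15973478-15973777), Cxcl10 (chr14:15988816-15989115) and Cxcl9 (chr14:16006916-16007215) are on the plus strand. Cxcl2 (chr14:17467206-17467505), Cxcl1 (chr14:17479272-17479571) and Cxcl6 (chr14:17596368-17596667) are on the minus strand.
Cxcl11: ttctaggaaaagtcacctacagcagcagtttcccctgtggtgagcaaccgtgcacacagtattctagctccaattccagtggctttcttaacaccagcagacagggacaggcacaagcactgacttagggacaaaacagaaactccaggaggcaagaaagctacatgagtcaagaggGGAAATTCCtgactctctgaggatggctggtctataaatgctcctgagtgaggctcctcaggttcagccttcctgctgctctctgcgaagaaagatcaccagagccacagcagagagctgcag
Cxcl10: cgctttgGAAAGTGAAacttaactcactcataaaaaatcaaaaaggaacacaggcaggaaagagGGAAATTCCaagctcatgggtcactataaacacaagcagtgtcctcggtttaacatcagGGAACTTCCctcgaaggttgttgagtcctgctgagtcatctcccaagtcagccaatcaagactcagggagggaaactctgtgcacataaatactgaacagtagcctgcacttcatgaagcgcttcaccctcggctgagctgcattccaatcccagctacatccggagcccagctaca
Cxcl9: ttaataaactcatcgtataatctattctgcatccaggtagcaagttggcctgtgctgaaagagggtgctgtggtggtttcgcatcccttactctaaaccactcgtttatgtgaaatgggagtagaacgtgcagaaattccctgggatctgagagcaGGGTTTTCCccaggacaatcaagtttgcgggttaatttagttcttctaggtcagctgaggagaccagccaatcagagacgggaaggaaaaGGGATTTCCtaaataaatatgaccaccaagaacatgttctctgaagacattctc
Cxcl2: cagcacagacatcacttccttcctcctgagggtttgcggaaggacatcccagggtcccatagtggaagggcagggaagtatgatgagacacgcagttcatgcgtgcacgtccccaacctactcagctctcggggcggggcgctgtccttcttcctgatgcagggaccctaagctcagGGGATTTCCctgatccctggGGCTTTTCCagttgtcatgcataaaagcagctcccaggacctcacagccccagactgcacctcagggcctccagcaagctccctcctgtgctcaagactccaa
Cxcl1: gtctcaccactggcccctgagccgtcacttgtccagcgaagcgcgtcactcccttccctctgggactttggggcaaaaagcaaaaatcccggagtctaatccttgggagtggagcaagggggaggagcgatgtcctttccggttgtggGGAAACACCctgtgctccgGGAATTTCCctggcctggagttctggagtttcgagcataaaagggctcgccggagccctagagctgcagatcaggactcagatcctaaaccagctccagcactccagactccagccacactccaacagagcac
Cxcl6: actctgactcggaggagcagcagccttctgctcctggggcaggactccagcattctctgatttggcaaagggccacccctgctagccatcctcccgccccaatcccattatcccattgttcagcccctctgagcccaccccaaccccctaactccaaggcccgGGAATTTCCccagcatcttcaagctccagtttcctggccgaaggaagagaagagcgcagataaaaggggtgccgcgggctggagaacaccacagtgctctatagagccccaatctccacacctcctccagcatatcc

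Counting the start site as base 0, the interferon form begins at -243 in Cxcl10 and was not matched in the other 5 windows. The NF-κB form begins at -73 in Cxcl11, at -186 and -127 in Cxcl10, at -94 and -4 in Cxcl9, at -73 and -53 in Cxcl2, at -102 and -83 in Cxcl1 and at -87 in Cxcl6. Of the 45 members, 35 had a promoter in the table; 17 of them (48.6%) held the NF-κB form, against 18.3% of all 33469 promoters of 300 bases. The interferon form was in 3 of the 35 (8.57%; Ccl19, Ccr2 and Cxcl10), against 9.71% of all. Matches are descriptions of letters in these windows, and both forms were matched in 2 members, Ccl19 and Cxcl10. Cxcl6, which rose after ligation, and Cxcl1, which fell in sham rats, both carry the NF-κB form at a similar distance from the start.

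The first question was what ligation alone does, from sham ligated against sham control livers. The interferon-inducible ligands Cxcl9, Cxcl10 and Cxcl11 and the inflammatory ligands Ccl3, Ccl4 and Cxcl1 fell, while Ccl21, Cxcl6, Ccl20, Cxcl16, Cx3cl1 and the receptor Cxcr4 rose. In all, 10 members were higher (22.2%) and 12 lower (26.7%), beside 25.3% and 22.4% of all genes. The share of members that changed was therefore near that of any gene. The median difference over the 45 members was -0.26, against -0.043 over all genes. The 2 groups did not overlap for 15 members (33.3%), beside 32% of all genes. With each array centred on its median the members' split was 10 higher and 18 lower, and that of all genes moved from 3394 higher and 3008 lower to 2594 and 5128, with a shift of the median of all genes from -0.043 to -0.23.

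Cxcl9, Cxcl10 and Cxcl11 are the ligands of CXCR3, a receptor of activated T and NK cells. Cxcl10 read 8.83, 10.15, 11.23, 9.79 and 8.53 in the 5 sham controls. In the 5 sham ligated livers it read 4.15, 4.65, 7.17, 4.25 and 5.52. Every ligated array was below every control array, and the mean fell by 4.56 ± 0.69 (SE), or 23.5-fold (limma adjusted p = 1.9e-06). Cxcl9 read 8.27, 9.85, 8.83, 7.19 and 8.65 in controls. It read 4.34, 3.65, 6.19, 3.59 and 5.01 after ligation, again without overlap, and fell by 4.00 ± 0.71 or 16.0-fold (limma adjusted p = 1.9e-05). The other Cxcl9 probe set fell by 4.29. Cxcl11 read 9.26, 10.63, 10.74, 9.12 and 8.98 in controls. After ligation it read 6.15, 6.03, 7.37, 4.74 and 6.31, and it fell by 3.63 ± 0.51 or 12.3-fold (limma adjusted p = 4.7e-07), also without overlap. Their receptor Cxcr3 was not above background in any group.

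The inflammatory ligands Ccl3 and Ccl4 fell as well. Ccl4 read 7.97, 8.49, 9.48, 8.03 and 8.30 in sham controls. It read 4.16, 5.19, 6.75, 5.68 and 6.97 in sham ligated livers, all below the controls, a fall of 2.70 ± 0.53 or 6.51-fold (limma adjusted p = 9.4e-05). Ccl3 was 8.34 ± 0.45 (SD, n = 5) in controls and 6.59 ± 1.24 (SD, n = 5) after ligation. The fall was 1.75 ± 0.51 or 3.36-fold (limma adjusted p = 0.00533). Cxcl1, which draws neutrophils through CXCR2, read 11.78, 12.17, 12.42, 12.05 and 11.63 in controls. After ligation it read 7.61, 9.79, 11.33, 10.89 and 11.38. It fell by 1.81 ± 0.44 or 3.50-fold (limma adjusted p = 0.00107). Smaller falls were those of Ackr3, the atypical receptor that takes up CXCL12 and CXCL11 (-0.76), and of Ccl9, a ligand of CCR1 in rodents (-0.52). The Ackr3 call was lost without any 1 of 6 arrays (replicates 1, 2 and 3 of either group) and the Ccl9 call without any 1 of 4 (control replicate 2, ligated replicates 2, 4 and 5). The other 4 lower calls, Ccl24, Ccr10, Cxcr3 and Xcl1, were of genes not above background in either group, at -0.40 to -0.83, and carry no fold.

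Among the rises, Ccl21, the CCR7 ligand of lymphatic vessels and lymphoid tissue, read 5.25, 4.43, 3.98, 4.29 and 4.70 in sham controls. It read 10.05, 9.30, 8.11, 9.34 and 8.57 in sham ligated livers. The groups did not overlap and the rise was 4.55 ± 0.40 (limma adjusted p = 3.8e-11). The control mean of 4.53 barely exceeded the background level of 4.51, with 2 of 5 control arrays above their own background, so no fold is given. Cxcl6, a neutrophil attractant, read 4.90, 3.94, 4.87, 4.53 and 3.68 in controls, a mean not above background. It read 8.62, 9.31, 7.90, 8.04 and 8.65 after ligation, a rise of 4.12 ± 0.60, or at least 12.9-fold (limma adjusted p = 9.5e-07). Ccl20, the ligand of CCR6, read 4.13, 4.39, 6.52, 4.12 and 4.42 in controls, where replicate 3 stood above the rest. After ligation it read 7.55, 8.26, 6.64, 7.37 and 8.33, all above the controls, a rise of 2.91 ± 0.57 (limma adjusted p = 8.5e-05). Its control mean of 4.72 was also close to background, and its control median of 4.39 was below the level of 4.51. Of the control arrays 3 of 5 were above their own background, and no fold is given.

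Cxcl16, a membrane-tethered ligand of CXCR6, read 6.90, 6.84, 6.84, 5.99 and 6.80 in sham controls and 9.65, 9.87, 8.84, 9.78 and 9.38 in sham ligated livers, with no overlap. It rose by 2.83 ± 0.25 or 7.10-fold. Cxcr4, the receptor of CXCL12, read 6.31, 6.64, 5.63, 5.66 and 6.34 in controls and 8.63, 8.86, 7.93, 9.39 and 8.56 after ligation, and rose by 2.56 ± 0.26 or 5.89-fold. Its other 2 probe sets rose by 2.32 and 2.49. Cx3cl1, the tethered ligand of CX3CR1, went from 3.42 ± 0.23 (SD, n = 5), not above background, to 5.79 ± 0.20 (SD, n = 5), a rise of 2.37 ± 0.26, or at least 2.44-fold.

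Ccr6, the receptor of CCL20, rose by 2.10 ± 0.37, at least 1.15-fold. Ccl19, like Ccl21 a CCR7 ligand, rose by 1.07 ± 0.28, at least 1.67-fold. Ccl28, a ligand of CCR10 at mucosal surfaces, rose by 1.16 ± 0.34, from a control level too dim for a fold. For Cxcl12 the brightest probe set rose by 0.86 ± 0.20, but the other 2 gave 0.14 and -1.59 and the mean over all 3 was -0.19, so its direction is uncertain. Thus ligand and receptor rose together for Ccl20 with Ccr6, whereas Cx3cl1 rose and its receptor Cx3cr1 differed by -0.14 (limma adjusted p = 0.495). Cx3cr1 was dim, however: its mean was not above background in sham controls (4.06 against 4.51) and was close to it after ligation (3.92 against 3.64).

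**Figure D2:**
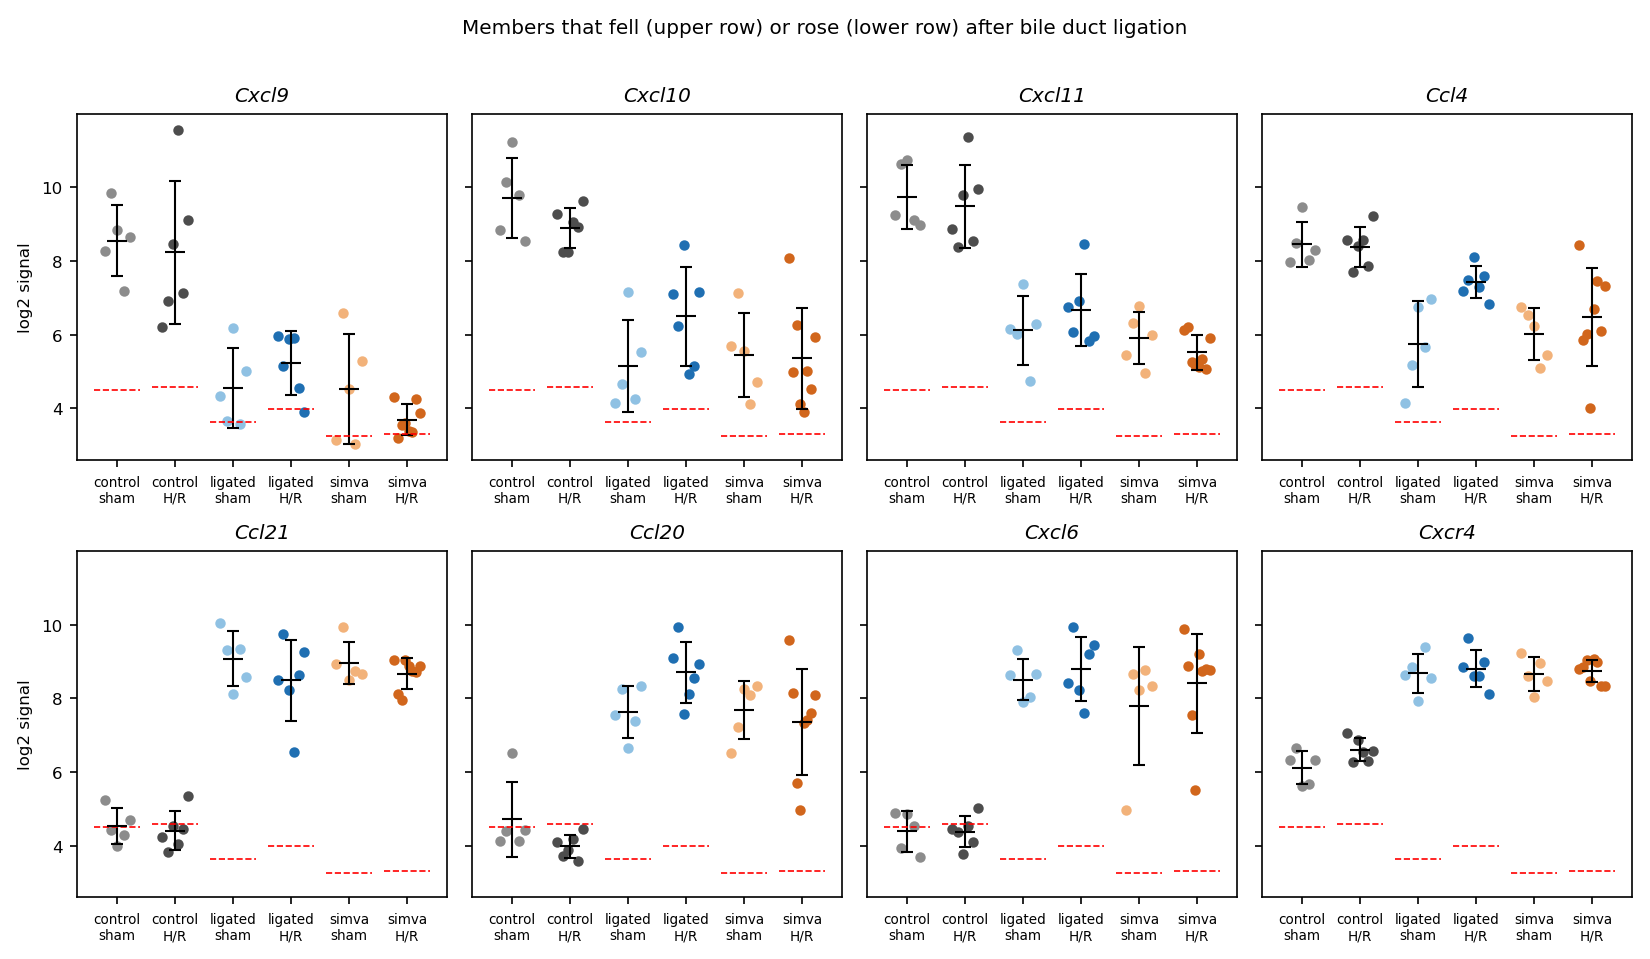
Log2 signal on each array (points, 6 groups on the x axis), with the group mean and SD in black and the background level in red, for 8 members. Cxcl9, Cxcl10, Cxcl11 and Ccl4 are lower in sham ligated than in sham control livers, and Ccl21, Ccl20, Cxcl6 and Cxcr4 are higher, without overlap on any of the 8.

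Markers of several cell types moved with ligation, and in bulk liver more cells of a type and more RNA per cell cannot be told apart. Of 6 cholangiocyte markers 5 rose and 0 fell, among them Krt19 by 4.81 and Epcam by 4.09. Their summed linear signal was 239 to 315 in sham controls, 229 to 485 in H/R controls, 2895 to 6909 in sham ligated and 3495 to 5740.0 in H/R ligated livers. Of 8 macrophage markers 4 rose (C1qa, C1qb, C1qc and Csf1r) and 1 fell, the Kupffer cell lectin Clec4f, by 2.72. Clec4f, as the sole fall, and the T and NK genes were named after their values were seen. The macrophage sum was 1038 to 2136 in sham controls and 2249 to 3225 in sham ligated livers. Of 8 stellate cell and myofibroblast markers 6 rose, with sums of 1405 to 1674 and 2706 to 4418 in the same groups. All 9 T and NK markers measured were not above background in both control groups; 3 rose (Cd3d, Cd3e and Cd3g) and 2 fell (Nkg7 and Prf1), with sums of 106 to 145 and 106 to 149. The part of these cells in the chemokine differences was not tested.

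Genes around the chemokines also moved, to be read beside 25.3% higher and 22.4% lower among all genes. Of 18 measured genes that signal below chemokine receptors 8 rose and 0 fell, including the G protein subunits Gnai2 (by 1.43) and Gnb1 (by 1.23), β-arrestin Arrb2 (by 1.38) and the receptor kinase Grk5 (by 0.87). Their median difference was 0.33, against -0.043 over all genes. Of 14 measured chemokine inducers and their regulators, mostly cytokines and transcription factors, 0 rose and 6 fell, with a median of -0.14. Il1a fell by 4.23, Il1b by 1.53, Irf1 by 1.33 and Stat2 by 0.73. Of 8 other relatives the platelet chemokine Pf4 rose by 2.98 (at least 5.45-fold) and Rarres2, the chemerin precursor, fell by 0.38.

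The effect of ligation was measured again in H/R rats, on arrays that the sham comparison did not use. There 14 members were higher (31.1%) and 4 lower (8.89%), beside 24.7% and 22.3% of all genes. The share lower was below that of all genes, with no test of that difference. The groups did not overlap for 9 members (20%), beside 23.2% of all genes. With arrays centred on their medians the members' split was 14 higher and 7 lower, and that of all genes moved from 3314 higher and 2996 lower to 2611 and 4795. Of the 22 members that changed in sham rats, 14 (63.6%) changed in H/R rats in the same direction. These are 77.8% of the 18 changed in H/R rats. The matching shares over all genes were not computed, so neither share is read as particular to the members.

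Ccl20 was the member with the largest rise here. It read 3.58 at the lowest, 3.99 at the median and 4.44 at the highest in the 6 H/R controls. In the 6 H/R ligated livers it read 7.57 at the lowest, 8.74 at the median and 9.92 at the highest, all above the controls, a rise of 4.72 ± 0.52, or at least 17.2-fold (limma adjusted p = 5.2e-09). Cxcl6 read 3.76 at the lowest, 4.41 at the median and 5.02 at the highest in H/R controls. It read 7.60 at the lowest, 8.81 at the median and 9.93 at the highest in H/R ligated livers, a rise of 4.43 ± 0.55, or at least 17.6-fold. Ccl21 read 3.82 at the lowest, 4.34 at the median and 5.33 at the highest in H/R controls and 6.55 at the lowest, 8.56 at the median and 9.75 at the highest after ligation. The rise of 4.08 ± 0.36, or at least 12.8-fold, again came without overlap. Cx3cl1 rose by 2.95 ± 0.24 (at least 3.22-fold), Cxcl16 by 2.59 ± 0.23 (6.00-fold) and Cxcr4 by 2.20 ± 0.23 (4.59-fold). Ccr6, Ccl28 and Ccl19 rose by 1.67, 1.36 and 0.94. The brightest Cxcl12 probe set rose by 0.73, with a mean over its probe sets of -0.35.

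The CXCR3 ligands were again lower. Cxcl9 read 6.21 at the lowest, 7.80 at the median and 11.57 at the highest in H/R controls. It read 3.89 at the lowest, 5.52 at the median and 5.98 at the highest in H/R ligated livers, all below the controls, a fall of 3.01 ± 0.64 or 8.03-fold. Cxcl10 read 8.25 to 9.63 in H/R controls, with a mean of 8.90 ± 0.55 (SD, n = 6). After ligation it read 4.93 at the lowest, 6.68 at the median and 8.45 at the highest, so that the groups overlapped, and it fell by 2.39 ± 0.63 or 5.25-fold. Cxcl11 fell by 2.82 ± 0.46 or 7.05-fold, also with overlap. The remaining fall was of Xcl1, not above background in either group.

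Another 4 members passed in H/R rats and not in sham rats. Cxcl3, a CXCR2 ligand, rose by 2.07 ± 0.53, against 1.33 in sham rats. Its H/R control mean of 4.91 was close to the background of 4.59, with 3 of 6 arrays above their own background, so no fold is given. Of its other 4 probe sets 2 gave 1.95 and 1.86 and the 2 dimmest 0.01 and -0.33 in H/R rats. Ccr1, a receptor of neutrophils and monocytes, rose by 1.45 ± 0.46 (at least 1.82-fold), against 0.09. Ccl2, the CCR2 ligand that recruits monocytes, rose by 1.35 ± 0.52 (2.55-fold, limma adjusted p = 0.0324), against -1.10, and lost its call without control replicate 2 or 5 or ligated replicate 1 or 2. Cxcl14, a ligand made by epithelium, rose by 1.27 ± 0.31 (2.41-fold), against 0.18, while its dimmer probe set gave 0.21 in H/R rats. A further 8 members, all lower, passed in sham rats and not in H/R rats. The test of the difference between the 2 ligation effects, which is the interaction of ligation with H/R, passed for none of these members.

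**Figure D3:**
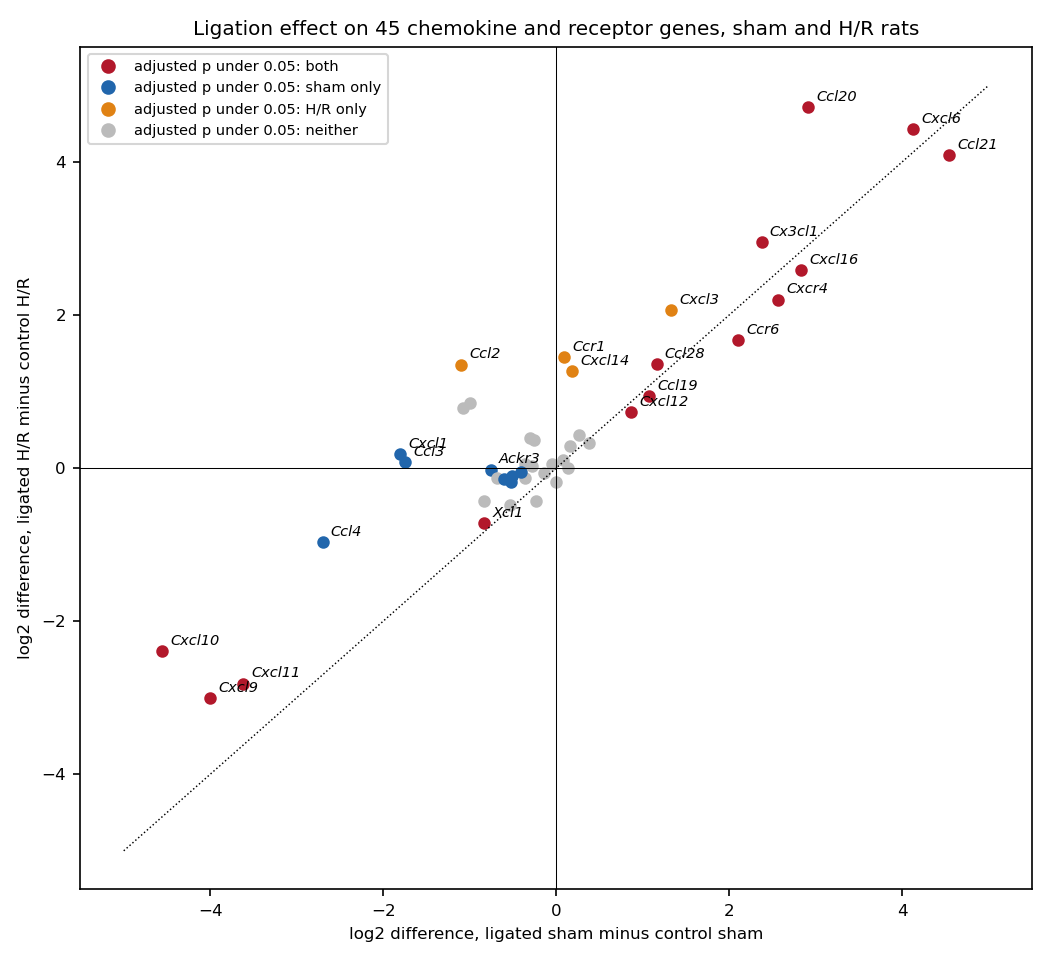
Log2 difference between ligated and control livers in sham rats (x) against H/R rats (y) for the 45 members, coloured by which comparison passed an adjusted p under 0.05, with the line of equal effects dotted. The 14 members that passed both lie in the lower left or upper right, while Ccl2, at -1.10 in sham and 1.35 in H/R rats, lies off the line.

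The central question was what H/R does in each setting. In control livers 0 members passed (0 higher and 0 lower, beside 0.365% and 0.491% of all genes), and 2 (4.44%) had an unadjusted limma p under 0.05, against 12.2% of all genes. In untreated ligated livers 0 passed as well (beside 0.119% and 0.0149% of all genes), but 16 (35.6%) had an unadjusted p under 0.05, all of them positive, against 10.4% of all genes. Signs were positive for 39 members and negative for 6, and the median was 0.32 against -0.015 over all genes. Signs over all genes were not counted, here or in the later comparisons. Several members moved together by array, as described below, so their signs are not independent. In simvastatin-treated livers 0 passed (beside 0% and 0% of all genes) and 1 (2.22%) had an unadjusted p under 0.05, against 5.39% of all genes. None of these counts is a call, and the ligated comparison is near the threshold for several members.

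Because no member passed, the members described here were chosen after their values were seen, for the size of their difference. Ccl7, which like Ccl2 draws monocytes through CCR2, read 2.96, 4.31, 5.65, 5.53 and 5.67 in sham ligated livers. In H/R ligated livers it read 6.17 at the lowest, 6.98 at the median and 7.94 at the highest. The groups did not overlap, and the difference was 2.19 (95% confidence interval 1.21 to 3.18; limma adjusted p = 0.0508). It was 0.35 in controls and 0.58 with simvastatin. Ccl2 read 5.70, 6.91, 8.54, 8.03 and 8.42 in sham ligated livers. After H/R it read 8.90 at the lowest, 9.64 at the median and 10.65 at the highest, also without overlap, a difference of 2.16 (1.05 to 3.27; limma adjusted p = 0.0984). It was -0.29 in controls and 0.44 with simvastatin.

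Cxcl2 and Cxcl1, the neutrophil attractants with neighbouring promoters printed above, had differences of similar size. Cxcl2 read 6.69, 7.72, 9.43, 9.78 and 9.35 in sham ligated livers. After H/R it read 10.08 at the lowest, 10.61 at the median and 11.40 at the highest, a difference of 2.04 (1.05 to 3.03; limma adjusted p = 0.0812) without overlap. Cxcl1 read 11.35 at the lowest, 12.16 at the median and 12.29 at the highest after H/R in ligated livers. Its difference was 1.79 (0.93 to 2.65; limma adjusted p = 0.0812), and the groups overlapped. In controls Cxcl2 differed by 0.18 and Cxcl1 by -0.20.

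Cxcl14 read 5.16, 4.89, 5.03, 5.13 and 4.88 in sham ligated livers. After H/R it read 5.40 at the lowest, 6.34 at the median and 7.44 at the highest, a difference of 1.39 (0.74 to 2.05; limma adjusted p = 0.07) without overlap. The dimmer Cxcl14 probe set gave 0.22 in this comparison. The receptor Ccr1 differed by 1.80 (limma adjusted p = 0.132) and the atypical receptor Ackr3 by 1.08 (limma adjusted p = 0.139), both without overlap. Ccl3 differed by 1.95 and Ccl4 by 1.67, with limma adjusted p of 0.098 and 0.204. Cxcr3 also did not overlap but was not above background, which makes 7 members (15.6%) without overlap, beside 1.19% of all genes. By contrast the ligation-linked Ccl21 (-0.59), Cxcl6 (0.29), Cxcl16 (0.07) and Cxcr4 (0.13) had intervals that included 0.

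**Figure D4:**
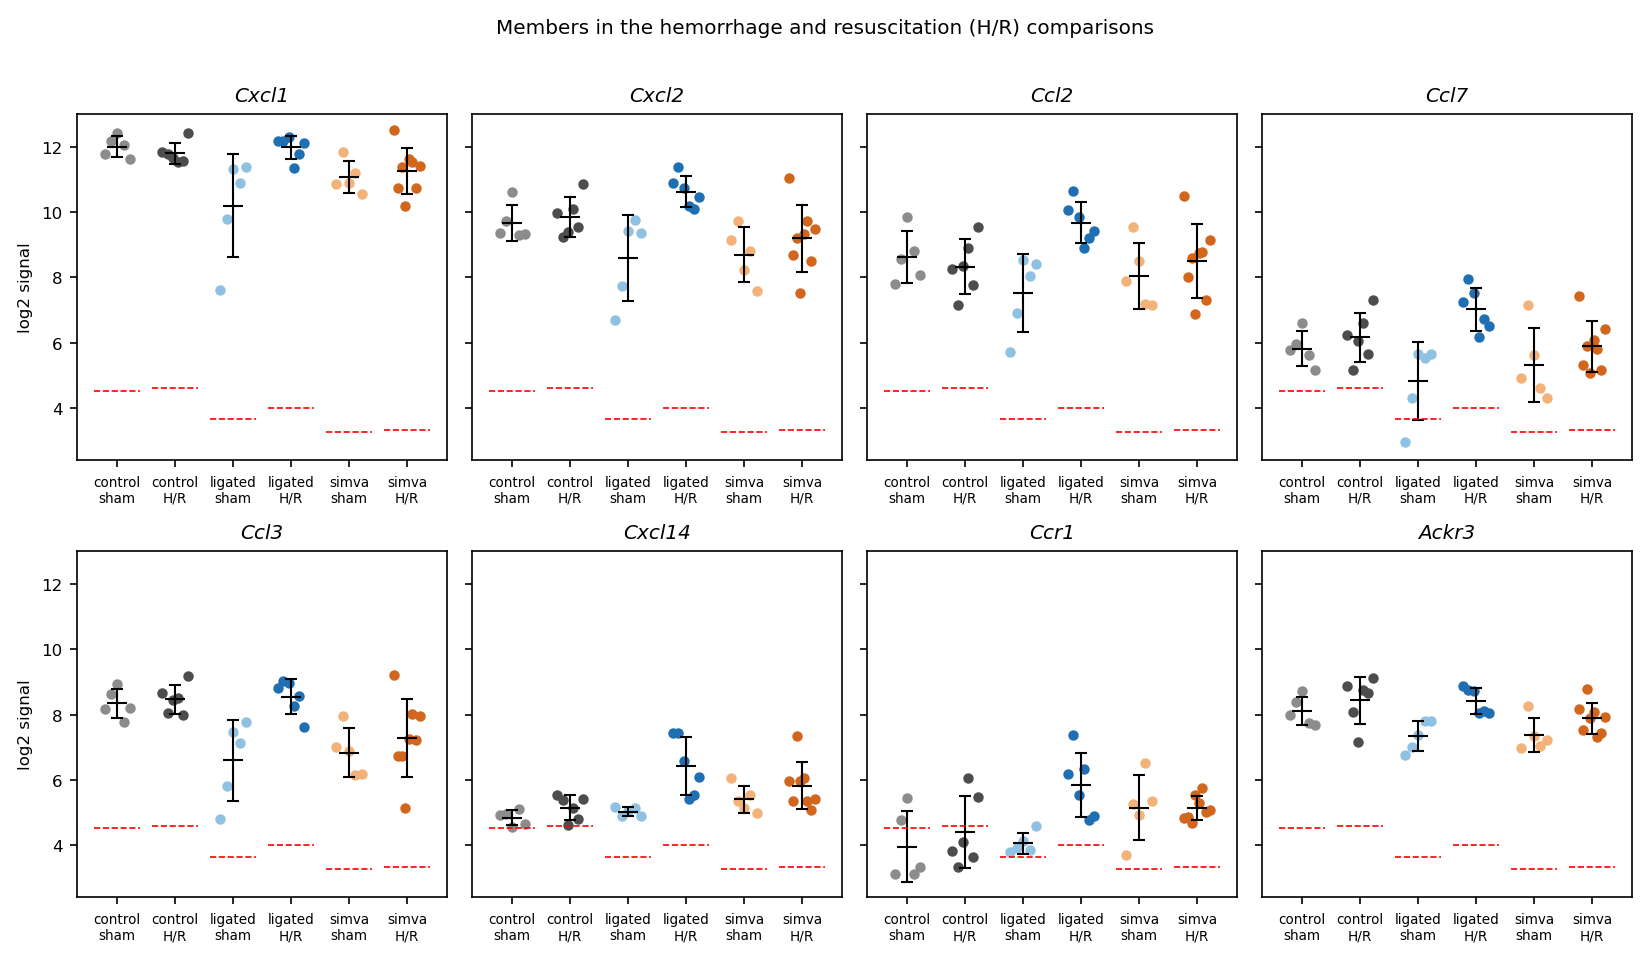
Log2 signal on each array (points, 6 groups on the x axis), with the group mean and SD in black and the background level in red, for 8 members chosen after their values were seen. In ligated livers the H/R arrays lie above the sham arrays without overlap for Cxcl2, Ccl2, Ccl7, Cxcl14, Ccr1 and Ackr3, and the 2 control groups overlap for all 8.

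The count of 0 in untreated ligated livers depended on single arrays and settings. It became 3 (Ccl7, Cxcl1 and Cxcl2) without sham replicate 3, 2 (Ccl7 and Cxcl1) without sham replicate 5, and 1 without H/R replicate 4 or 5 (Cxcl14) or 6 (Ccl7). It stayed at 0 without any other array, among them sham replicate 1. Cxcl1, Cxcl2, Ccl2, Ccl3, Ccl4 and Ccl7 were all lowest on that array of their group, so leaving it out makes their differences smaller. Of the inducers, Il1b passed, rising by 2.28 ± 0.46 (limma adjusted p = 0.0226). The 5 neutrophil markers measured had a median difference of 1.51, with 0 past the threshold. Their summed linear signal ran from 1274 to 2656 in sham ligated and 2539.8 to 9672 in H/R ligated livers, and from 581 to 2153 and 909 to 6556 in the matching controls; 1 of the 5 was not above background in H/R ligated livers and 2 in the other 3 groups. Macrophage marker sums were 2249 to 3225 and 2055 to 4474 in sham and H/R ligated livers. The part of these cells in the differences was not tested.

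Whether H/R acted differently in ligated than in control livers was tested directly. For the difference of the 2 H/R effects 0 members passed (beside 0% higher and 0.00744% lower of all genes). An unadjusted limma p under 0.05 was seen for 11 (24.4%), against 5.46% of all genes. The median was 0.34, against -0.0080 over all genes. The 5 largest are named, chosen after their values were seen. Ccl2 gave 2.46 (0.89 to 4.03; limma adjusted p = 0.613), Cxcl10 2.16, Cxcl1 1.99, Cxcl2 1.86 and Ccl7 1.85. A difference between the settings was thus not shown by this test.

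The last question was what simvastatin does in ligated livers. Without H/R, 0 members passed (beside 0.632% higher and 0.149% lower of all genes), with 4 (8.89%) at an unadjusted limma p under 0.05, against 10.8% of all genes. These 4, named after their values were seen, were higher with simvastatin: Ccl28 by 0.86 (0.16 to 1.55; limma adjusted p = 0.332), Ccr1 by 1.10 (limma adjusted p = 0.412), Cxcl13 by 0.92 (limma adjusted p = 0.459) and Ccr10, at background, by 0.26. Ccl28 and Ccr10 are among the members that had changed with ligation in sham rats, while Ccr1 had changed with ligation in H/R rats only. All other members, changed with ligation or not, had intervals that included 0. Examples that had changed with ligation are Ccl21 at -0.13 (-0.94 to 0.68), Ccl20 at 0.05 (-1.11 to 1.21), Cxcr4 at -0.01 (-0.53 to 0.51) and Cxcl10 at 0.29 (-1.12 to 1.70). With H/R, 0 were higher and 1 lower, Cx3cr1, the fractalkine receptor of monocytes, beside 0.848% and 0.506% of all genes. In this comparison 18 members (40%) had an unadjusted p under 0.05, against 14.4% of all genes. Signs were negative for 37 members and positive for 8, and the median was -0.35 against -0.0011 over all genes. The groups overlapped for every member, while 0.96% of all genes did not overlap.

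Cx3cr1 read 4.25 at the lowest, 4.39 at the median and 4.60 at the highest in the 6 untreated H/R ligated livers. It read 3.56 at the lowest, 3.73 at the median and 4.31 at the highest in the 8 treated ones, which overlapped. The fall was 0.59 ± 0.14 (limma adjusted p = 0.0198). Both means were close to background, at 4.39 against 4.00 in untreated and 3.80 against 3.32 in treated livers. Of the untreated arrays 5 of 6 were above their own background, and of the treated 8 of 8, so no fold is given. The call was lost without untreated replicate 2 (adjusted p = 0.0597). The largest differences that did not pass were those of Cxcl9 (-1.54), Cxcl2 (-1.44), Ccl20 (-1.35) and Ccl3 (-1.26), chosen after their values were seen, with limma adjusted p of 0.214, 0.0901, 0.174 and 0.149. Cxcl2 read 7.53 at the lowest, 9.27 at the median and 11.05 at the highest in treated H/R livers. Leaving out treated replicate 1 added Cxcl2 to the calls. Neutrophil marker sums were 2539.8 to 9672 in untreated and 2011 to 5124 in treated H/R livers, with 0 of 5 markers past the threshold; their part was not tested.

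Whether treatment changed the H/R effect was tested in the same way. In the difference of H/R effects between simvastatin and untreated ligated livers 0 members passed (beside 0% higher and 0.00744% lower of all genes), 12 (26.7%) had an unadjusted limma p under 0.05, against 4.87% of all genes, and signs were negative for 35 of 45. The 5 largest in size, chosen after their values were seen, were negative. Ccr1 gave -1.83 (-3.18 to -0.49; limma adjusted p = 0.804), Ccl2 -1.72, Ccl7 -1.61, Cxcl1 -1.59 and Cxcl2 -1.54. This contrast shares the untreated ligated arrays with the comparison of H/R and sham there, so its signs are not separate evidence.

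**Figure D5:**
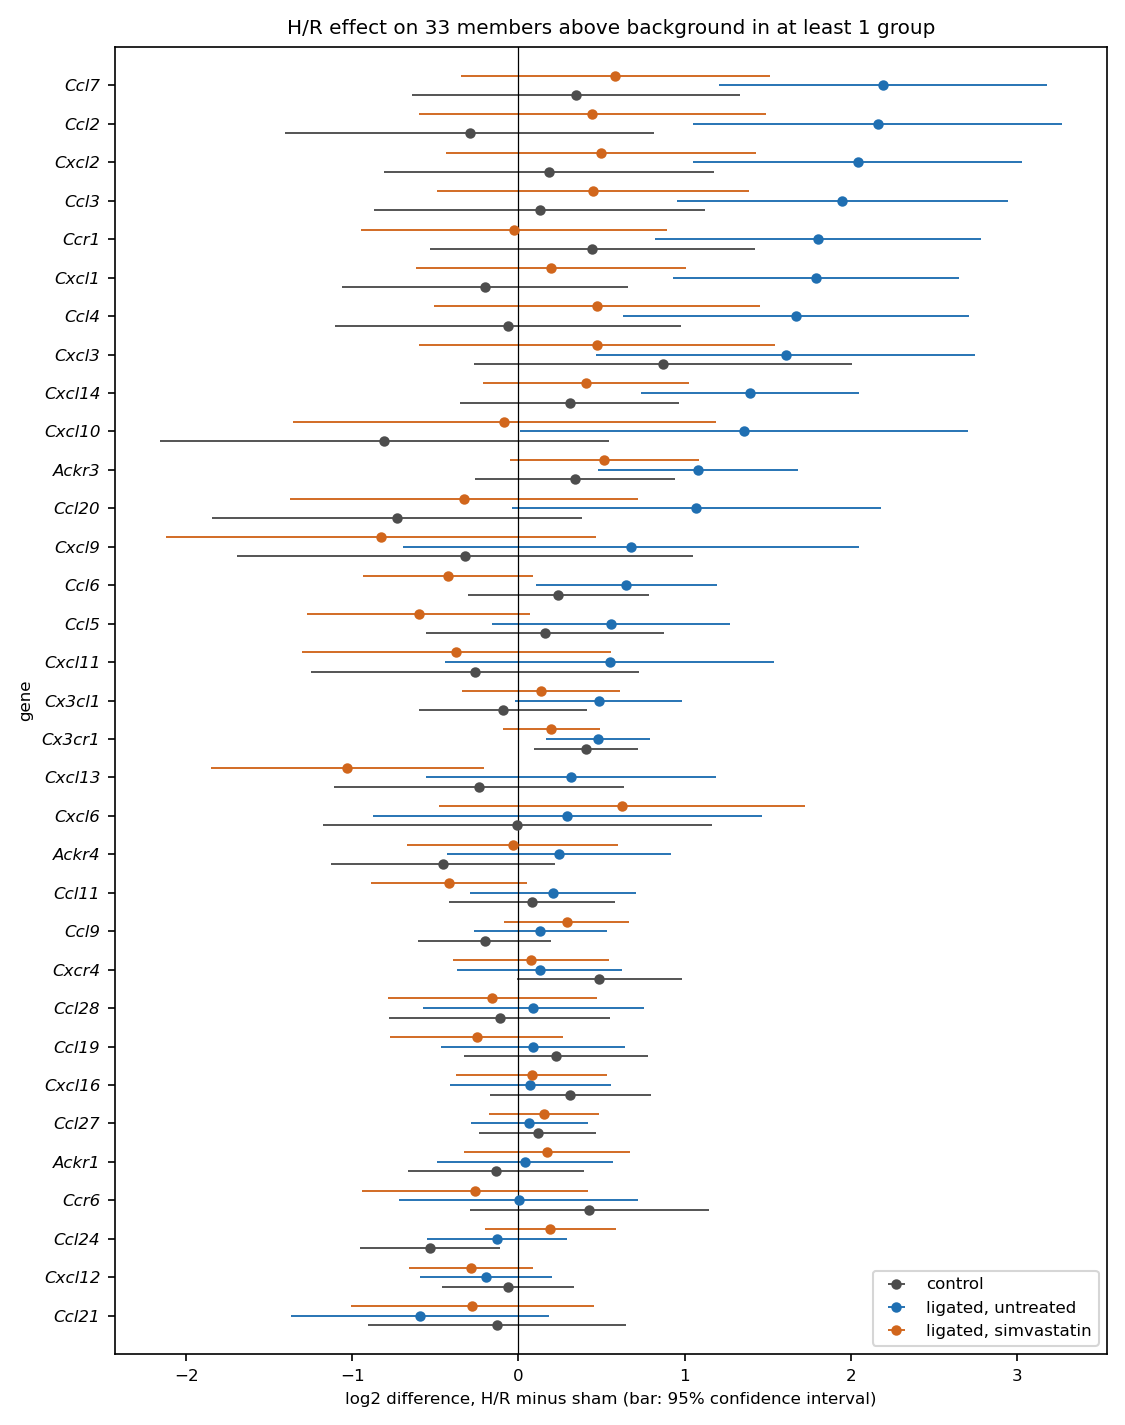
Log2 difference between H/R and sham livers, with its 95% confidence interval, for the 33 members above background in at least 1 group, in control, untreated ligated and simvastatin-treated ligated rats. The untreated ligated differences reach 2.19 for Ccl7, while most control and simvastatin intervals include 0, and none of the differences passed the adjusted threshold.

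The 6 inflammatory ligands Cxcl1, Cxcl2, Ccl2, Ccl3, Ccl4 and Ccl7 often had their extreme values on the same array of a group, which was so for all 6 in 5 of 12 cases (the highest and the lowest array of 6 groups). All 6 were highest on replicate 3 of the sham controls, replicate 6 of the H/R controls and replicate 1 of the simvastatin H/R group. All 6 were lowest on replicate 1 of the sham ligated group and replicate 4 of the simvastatin H/R group. In the other cases 2 to 5 of the 6 shared the array. The fewest were in the sham controls, where at most 2 were lowest on the same array, and in the H/R ligated group, where 4 were highest on replicate 2 and 3 lowest on replicate 4.

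Across the 9 comparisons 27 members passed in at least 1 and 18 in none. Those 18 include 9 of the 12 at background in all groups; the others are Ackr1, Ackr4, Ccl5, Ccl6, Ccl7, Ccl11, Ccl27, Cxcl2 and Cxcl13.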

How the data were processed

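Total RNA of rat liver was labelled with biotin and hybridised to the 35 arrays by the standard Affymetrix protocol, per the labels' protocols. The authors deposited log2 signals of 31139 probe sets, and no source used here gives their normalization. Probe sets with a single symbol (19069) were kept, the brightest by mean over all arrays per gene, which gave 13439 genes; 572 had several symbols and 11498 none. Group means were fitted over all arrays with limma 3.58.1 in R 4.3.3 (lmFit, eBayes), two-sided, with Benjamini-Hochberg adjustment within each of the 9 comparisons. The fit was also run on simulated data. That simulation drew genes independently with equal spread on all arrays, unlike these data, and is not used as support. Arrays give no count depth, so their number limits the precision. Alternatives covered the groups in the fit, variance moderation, array weights, a 30th percentile filter, renormalization, median centring, the probe set rule, a block and leaving out each array. The members, lists and motifs were chosen with earlier results of these data known. Values are named for members that passed in at least 1 comparison (at most the 10 largest rises and 10 largest falls in each), others by count or as chosen after their values were seen; from each other list up to 4 genes with the smallest p for sham ligation are named, and exceptions are stated.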

Additional observations from a re-analysis of the deposited data

Results flagged for a closer look

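Of 186 sets of values tested for a sample far from the others (174 of members and 12 of array measures), 11 had one; chance alone marks about 1 in 20 such groups. Among the members, Ccl20 stood at 6.52 on sham control replicate 3, the highest of its group, and Xcl1 at 4.40 on the same array. Cxcl16 was lowest on sham control replicate 4, at 5.99. Cxcl1 was highest on H/R control replicate 6, at 12.43. In the simvastatin H/R group, Ccl28 was lowest on replicate 3, at 3.76, Cxcl14 highest on the same array, at 7.35, and Cx3cl1 highest on replicate 1, at 7.08. Cxcl6 was lowest on simvastatin sham replicate 1, at 4.96. That array also had the highest actin and GAPDH 3′ to 5′ differences of its group, 4.30 and 2.20 on the log2 scale. The actin difference was highest on sham control replicate 2 as well, at 2.34. Without simvastatin sham replicate 1, the comparisons that use it still had 0 members past the threshold.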

How the results depend on the processing

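Of 732 refits of the 41 gene calls, 700 kept direction and side of the threshold, 30 lost the call and 2 reversed; 32 calls held in all. Both reversals were of Cxcl12 with the mean of its probe sets, -0.19 in sham and -0.35 in H/R rats. Leaving out 1 array gave 19 to 22 members for ligation in sham and 17 to 21 in H/R rats, 0 to 3 for H/R in untreated ligated livers, 0 to 2 for simvastatin with H/R (0 without untreated replicate 2, 2 without treated replicate 1), and 0 in the other 5 comparisons. Other settings gave 18 to 28 and 17 to 21 for ligation. For H/R in untreated ligated livers they gave 4 with array weights (Ccl7, Cxcl1, Cxcl14 and Cxcl2), and 1, Ccl7, with the 30th percentile filter, renewed quantile normalization or median centring. For simvastatin with H/R they gave 2 with the compared groups alone (adding Cxcl9), 3 with array weights (adding Ccl5 and Xcl1) and 0 with quantile normalization. Ccl24 lost its call in sham rats with the compared groups alone, with trended robust moderation, with array weights, or without control replicate 1, 2, 4 or 5 or ligated replicate 2, 3 or 4. Xcl1 lost its calls without sham control replicate 3 and H/R control replicate 6, and in H/R rats with the compared groups alone. Ccl2 also lost its call with array weights. The cause of these changes was not tested. Members at background in all groups went from 12 to 0 with the median nonspecific probe set. With a block for the last 2 digits of the title number, which the labels do not explain, the 3 comparisons it allows kept 0 members. Every control array ends in 13 and no untreated ligated array does. Untreated sham ligated arrays end in 03, 04 or 06 and simvastatin sham arrays in 12 or 13. Whatever these digits stand for therefore cannot be told apart from ligation in untreated rats, or from simvastatin in sham rats. No paired analysis was possible because the labels give groups no shared replicate numbers.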
